A study of Rattus norvegicus with 18 samples.

Results

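The cell cycle and DNA replication genes described here are a list of 40 genes, 20 that serve DNA replication in S phase and 20 that serve mitosis. They were picked by gene symbol from the 30643 genes of each table of normalized reads, and 39 of the 40 were found. All 20 replication genes and 19 mitotic genes had a mean of at least 10 normalized reads at both times. Expression of the mitotic cyclin gene Ccnb2 was not analysed here.

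RNA was sequenced from CD11b-sorted cells (CD11b is a surface integrin of monocytes, macrophages and granulocytes) of the knee synovium of wild type male Sprague Dawley rats, operated at 12 weeks of age. In the OA groups the knee was opened and the anterior cruciate ligament and the medial meniscotibial ligament were cut, a model of post-traumatic osteoarthritis, and in the sham groups the knee was opened and no ligament was cut. A library is the RNA of 1 pool of rats, replicate numbers name libraries, and a normalized read is a read divided by the size factor of its library. There were 5 OA and 5 sham libraries at 4 weeks, each from a pool of 4 rats, and 4 OA and 4 sham libraries at 12 weeks, each from a pool of 3 rats. Each pool is 1 replicate, so that the p-values measure the spread between pools. In such bulk RNA, fewer cells of a type and less RNA per cell cannot be told apart.

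A cell that prepares to divide loads the ring-shaped MCM helicase onto its replication origins in G1 with the help of Cdc6 and Cdt1, and in S phase joins it with Cdc45 and the GINS complex into the working helicase that polymerases follow. Transcription of most replication genes is driven by E2F factors, whereas mitotic genes peak later and many carry a CHR (cell cycle genes homology region) element, often beside CCAAT boxes. Tissue macrophages can renew themselves by division in place, and the mRNAs of these genes are commonly read as a trace of cells in cycle.

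The lists also differ in promoter sequence, which the choice of members did not use. RefSeq promoter windows of the GRCr8 assembly, from 250 bases before to 50 bases after the start of transcription, were found by symbol for 34 of the 40 genes, Ccnb2 among them, and not for Aurkb, Tpx2, Rrm2, Cdc6, Ccna2 and Mcm4. Letters were searched on both strands. The E2F-type words TTTCCCGC or TTTGGCGC were present in 8 of 17 replication windows, in 0 of 17 mitotic windows and in 1.45% of all 33469 windows. The CHR word TTTGAA was present in 11 of 17 mitotic windows, 1 of 17 replication windows and 18.3% of all windows. The CCAAT word was present in 14 of 17 mitotic, 11 of 17 replication and 37.5% of all windows. None of the words searched contains another. A match is a description of letters and no evidence of binding.

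The 150 bases before the start of 3 replication genes and 4 mitotic genes are shown because they hold these words, on the strand of the gene, 5′ to 3′, with the E2F-type word or the CHR word in capitals. They lie at chr19:13488663-13488812 (plus strand) for Mcm5, chr13:42404353-42404502 (minus strand) for Mcm6, chr9:120776084-120776233 (minus strand) for Tyms, chr20:19265143-19265292 (plus strand) for Cdk1, chr10:84473094-84473243 (minus strand) for Top2a, chr1:199952594-199952743 (minus strand) for Mki67 and chr5:137255800-137255949 (minus strand) for Cdc20.
Mcm5: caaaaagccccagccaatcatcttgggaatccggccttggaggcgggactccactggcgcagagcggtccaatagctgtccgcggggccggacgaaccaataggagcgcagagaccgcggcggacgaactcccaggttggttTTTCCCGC
Mcm6: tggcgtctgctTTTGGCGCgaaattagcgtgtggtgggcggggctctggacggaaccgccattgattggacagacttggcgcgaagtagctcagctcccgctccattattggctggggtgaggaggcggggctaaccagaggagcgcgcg
Tyms: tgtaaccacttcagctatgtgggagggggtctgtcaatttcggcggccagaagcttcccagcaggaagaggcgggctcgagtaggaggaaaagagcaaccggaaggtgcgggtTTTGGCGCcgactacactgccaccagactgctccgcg
Cdk1: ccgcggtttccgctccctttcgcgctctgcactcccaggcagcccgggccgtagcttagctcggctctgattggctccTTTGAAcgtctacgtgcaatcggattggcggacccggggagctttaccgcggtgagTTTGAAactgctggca
Top2a: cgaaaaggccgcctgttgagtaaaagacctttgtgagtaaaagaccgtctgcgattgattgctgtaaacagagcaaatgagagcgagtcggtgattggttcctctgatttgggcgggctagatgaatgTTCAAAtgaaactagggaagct
Mki67: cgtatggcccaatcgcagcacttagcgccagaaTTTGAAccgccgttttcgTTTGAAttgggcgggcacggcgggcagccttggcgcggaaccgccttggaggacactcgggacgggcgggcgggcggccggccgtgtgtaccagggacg
Cdc20: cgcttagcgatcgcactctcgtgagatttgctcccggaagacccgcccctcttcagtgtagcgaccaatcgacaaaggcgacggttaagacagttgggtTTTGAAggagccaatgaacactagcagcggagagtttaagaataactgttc

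The first letter of the E2F-type word stood 8 bases before the start in Mcm5, 139 bases before it in Mcm6 and 37 bases before it in Tyms. The CHR word began 72 and 16 bases before the start in Cdk1, 117 and 99 bases before it in Mki67 and 51 bases before it in Cdc20. In Top2a it reads TTCAAA, the same word on the opposite strand, 22 bases before the start.

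Recovered reads per library ran from 4662344 to 17235069 at 4 weeks and from 10976114 to 18080503 at 12 weeks, and a floor of 3 reads corresponds to 2.06 to 6.96 normalized reads at 4 weeks and 2.27 to 3.82 at 12 weeks, which covers counting error only. All 39 members lay above that floor in every library. The macrophage and leukocyte markers Csf1r (20784 to 36139 normalized reads over both weeks' libraries) and Ptprc (3166 to 8274) were present in every library, as were the fibroblast collagen gene Col1a1 (8093 to 25720) and the endothelial cadherin gene Cdh5 (4447 to 7378), so that transcripts of those cell types were present too. Sham replicate 3 at 4 weeks had the fewest reads and the lowest Itgam (2270 normalized reads, against 3745 to 6917 in the other libraries of that week), the gene of CD11b itself. Sham replicate 2 at 12 weeks stood apart in the cell cycle genes, and counts, medians and spreads that rest on it are given with and without it.

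The comparison of OA with sham asked whether the cells differ in cell cycle transcripts after joint injury. No member passed the test at either time. The call needed an absolute log2 fold change of 0.5 or more and an adjusted p below 0.05 in limma (Benjamini-Hochberg adjustment over all genes with a mean of at least 10). Fold changes are OA against sham on the scale of log2(normalized reads + 1), which understates the change of low genes. At 4 weeks 0 of 39 members were called by limma, edgeR or DESeq2, and of all genes 0% were called by limma, 0% by edgeR and 0.159% by DESeq2. At 12 weeks the count was again 0 of 39 by all 3 tools, beside 0% of all genes in limma, 0% in edgeR and 0.695% in DESeq2.

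Levels were summed up in each library by the mean log2(normalized reads + 1) over the members. At 4 weeks the replication genes stood at 8.35, 8.11, 7.99, 8.05 and 8.10 in sham replicates 1 to 5 and at 8.33, 8.28, 7.95, 7.98 and 7.92 in OA replicates 1 to 5. The mitotic genes stood at 7.98, 7.60, 7.05, 7.23 and 7.49 in sham and at 8.002, 8.08, 7.36, 7.28 and 7.17 in OA. OA replicates 1 and 2 and sham replicate 1 were thus the highest libraries in both lists, and the surgeries overlapped over nearly the whole range. Of the 39 members, 14 were highest in OA replicate 2, 11 in sham replicate 1 and 8 in OA replicate 1, where of all 14861 genes tested 1201, 1849 and 603 were highest.

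At 12 weeks the replication genes stood at 8.23, 8.73, 7.96 and 7.88 in sham replicates 1 to 4 and at 7.94, 7.97, 7.88 and 7.97 in OA replicates 1 to 4. The mitotic genes stood at 7.31, 8.39, 6.53 and 6.62 in sham and at 6.89, 7.18, 6.66 and 6.88 in OA. Sham replicate 2 was the highest library in both lists, sham replicate 1 was next, and the other sham libraries lay below every OA library in the mitotic genes. The SD over sham libraries was 0.38 for the replication genes and 0.86 for the mitotic genes, against 0.043 and 0.21 over OA libraries. Without sham replicate 2 the sham SDs were 0.18 and 0.43. The mitotic members together took 158 to 631 CPM (of all recovered reads of a library) at 12 weeks and 256 to 569 CPM at 4 weeks. The 631 CPM was sham replicate 2, and the next highest library at 12 weeks was sham replicate 1 at 304 CPM.

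**Figure D1:**
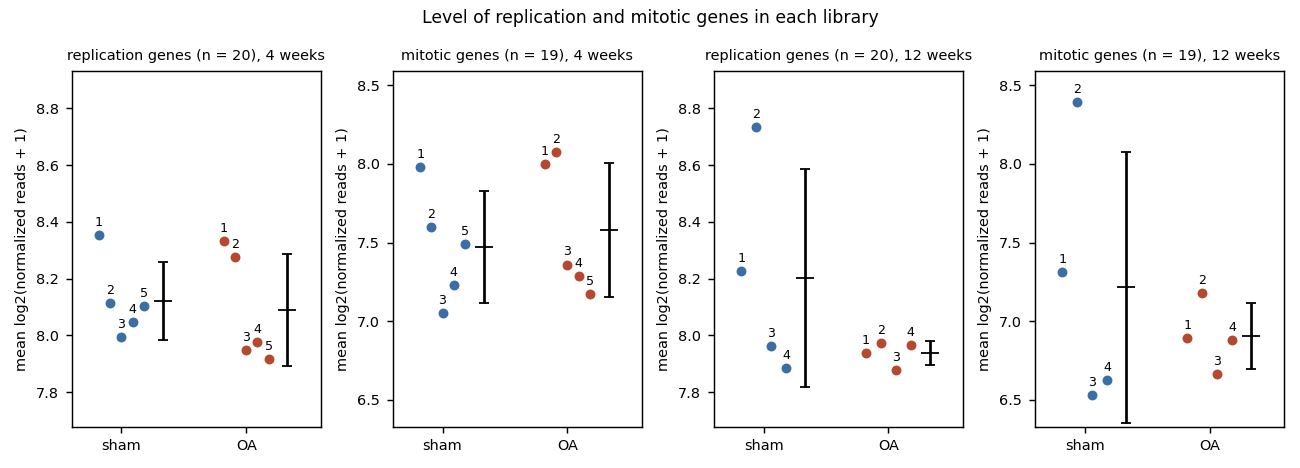
Mean log2(normalized reads + 1) of the 20 replication genes and 19 mitotic genes in each library (points, numbered by replicate; blue sham, red OA), with the group mean and SD as black bars. At 4 weeks OA replicates 1 and 2 and sham replicate 1 lie above the other libraries, and at 12 weeks sham replicate 2 lies above all others, at 8.73 and 8.39. The axes do not start at 0, and the weeks were normalized separately.

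At 4 weeks the members were split between directions. Of the replication genes 10 were higher and 10 lower in OA, with a median log2 fold change of -0.0042, and of the mitotic genes 12 were higher and 7 lower, with a median of 0.095. Over all genes tested the median was 0.028 and 42.9% were lower in OA. With TMM scaling the replication median was 0.047, and with each library left out the mitotic median ran from -0.025 (without OA replicate 2) to 0.23 (without sham replicate 1), with -0.022 without sham replicate 3. Only Cdt1 had an unadjusted limma p under 0.05, and it was lower in OA, which is 1 of 39 members where 3.82% of all genes were lower and 4.1% higher at that p. The same count was 1 in edgeR, beside 5.01% of all genes lower and 3.08% higher, and 0 in DESeq2, beside 5.06% and 4.29%. In no member did the groups fail to overlap, beside 1.18% of all genes with every OA library higher and 0.693% with every OA library lower.

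All 39 members had a negative fold change at 12 weeks, beside 52.5% of all genes. The median log2 fold change was -0.20 for the replication genes and -0.32 for the mitotic genes, and -0.011 for all genes tested. Sham replicate 2 was the highest of the 8 libraries in 17 of 20 replication genes and 19 of 19 mitotic genes, where 14.3% of all genes were highest. Without that library 13 replication genes were lower and 7 higher (median -0.075), 6 mitotic genes were lower and 13 higher (median 0.088), and 51.0% of all genes were lower. The mitotic median was -0.57 without sham replicate 3 and -0.53 without sham replicate 4, the lowest libraries. The level of sham replicate 2 was set against the median of the other 3 sham libraries. The median ratio was 1.58 over the replication genes (0.925 to 4.78), 3.25 over the mitotic genes (1.42 to 5.28) and 0.993 over all genes.

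Gins2, Mcm4 and Pcna had an unadjusted limma p under 0.05 at 12 weeks, all lower in OA, which is 3 of 39 members where 6.62% of all genes were lower and 5.75% higher at that p. In edgeR 3 of 39 members had such a p, all lower, beside 5.9% of all genes lower and 6.59% higher. In DESeq2 there were 7 of 39, 5 replication and 2 mitotic genes, all lower, beside 6.42% of all genes lower and 5.48% higher, a share above the background. The smallest adjusted p in DESeq2 was 0.179. Without sham replicate 2 the count was 3 of 39 in each tool, all lower, beside 7.15% of all genes lower and 6.3% higher in limma, 6.63% and 6.64% in edgeR, and 6.65% and 5.43% in DESeq2. Every OA library was lower than every sham library in Gins2 and Tyms, 2 of 39 members, beside 3.44% of all genes in that direction and 2.85% in the other. The counts in limma and edgeR and the count of genes without overlap were close to the background.

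**Figure D2:**
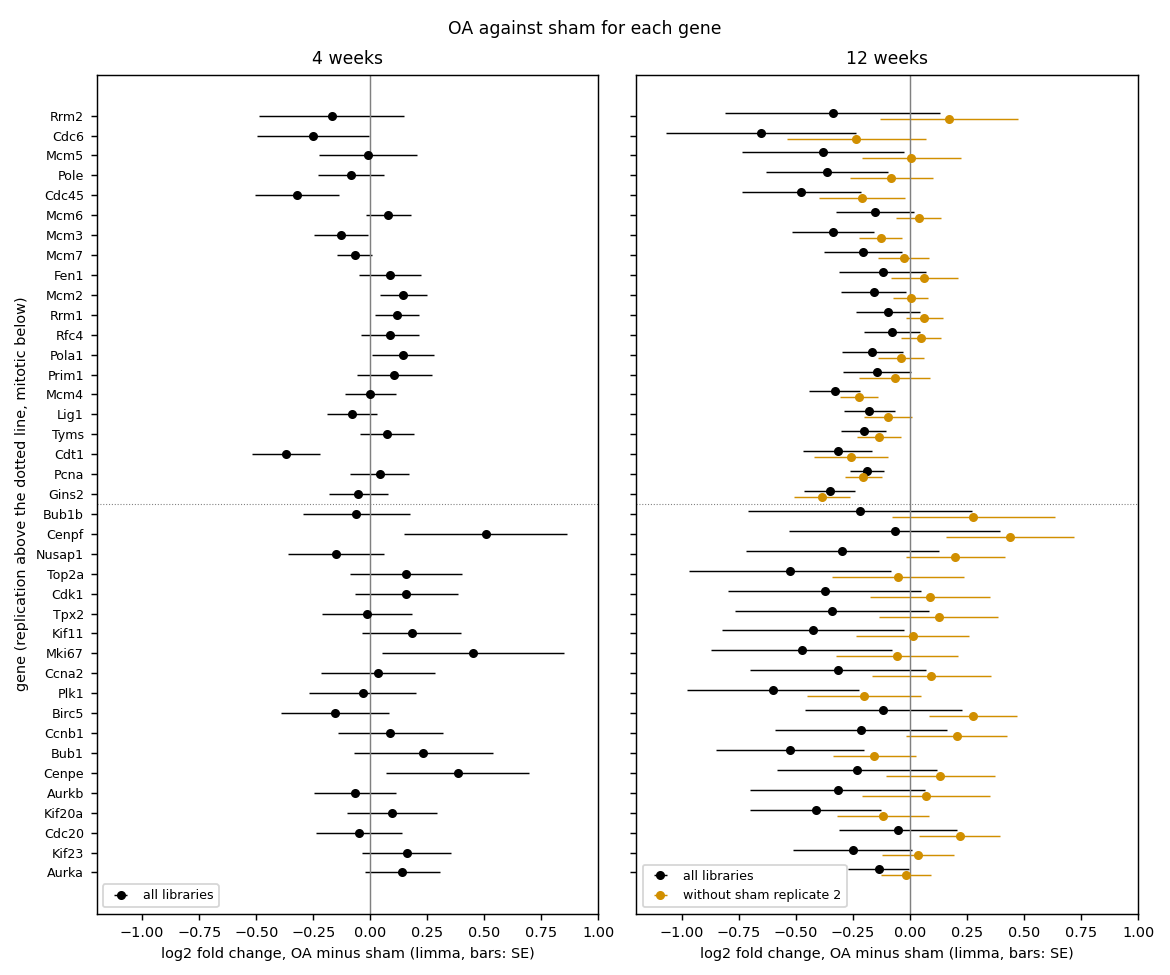
Log2 fold change of OA against sham (limma, bars are SE) for the 39 members at 4 and 12 weeks, replication genes above the dotted line and mitotic genes below it, ordered within each list by the ratio of sham replicate 2 to the other sham libraries at 12 weeks. At 12 weeks all 39 black points (all libraries) lie below 0, while without sham replicate 2 (orange) 19 lie below 0 and 20 above.

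Licensing of origins is the work of Cdc6, an ATPase that joins the origin recognition complex, and Cdt1, which brings the MCM ring and is destroyed in S phase. Cdc6 measured 57.1, 40.7, 55.7, 35.2 and 38.7 normalized reads in the sham libraries and 56.2, 50.5, 24.0, 37.4 and 28.2 in the OA libraries at 4 weeks. By 12 weeks it measured 37.0, 79.1, 19.1 and 19.5 normalized reads in the sham libraries and 27.1, 16.3, 16.1 and 23.6 in the OA libraries. Sham replicates 1 and 3 and OA replicates 1 and 2 were the high libraries at 4 weeks, and sham replicate 2 was the highest at 12 weeks, more than any library of that week by a wide margin and 4.05 times the median of the other sham libraries. The Cdc6 log2 fold change was -0.25 ± 0.25 (SE, adjusted p = 0.789) at 4 weeks and -0.65 ± 0.42 (SE, adjusted p = 0.529) at 12 weeks, the most negative of all members, and -0.24 ± 0.31 (SE, adjusted p = 0.747) without sham replicate 2.

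Cdt1 measured 63.5, 51.4, 69.6, 71.5 and 66.3 normalized reads in the sham libraries and 54.8, 56.2, 46.7, 37.4 and 54.2 in the OA libraries at 4 weeks. All sham libraries but replicate 2 were above every OA library. Its 12-week values were 85.4, 98.0, 99.2 and 67.8 normalized reads in the sham libraries and 68.1, 69.4, 78.3 and 62.2 in the OA libraries. Sham replicates 1, 2 and 3 were above every OA library and sham replicate 4 was inside the OA range. Sham replicate 3 (99.2) was the highest here, with sham replicate 2 (98.0) close to it. The log2 fold change of Cdt1 was -0.37 ± 0.15 (SE, unadjusted p = 0.0284, adjusted p = 0.607) at 4 weeks and -0.32 ± 0.15 (SE, adjusted p = 0.421) at 12 weeks, neither past the threshold, and it was -0.26 ± 0.16 (SE, adjusted p = 0.497) without sham replicate 2.

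The helicase members are the 6 MCM subunits of the ring with Cdc45 and the GINS subunit Gins2. At 4 weeks Mcm2 had 649, 557, 459.6, 557 and 523 normalized reads in the sham libraries and 700.2, 656, 565, 557 and 555 in the OA libraries. Mcm5 stood at 426, 302, 220.5, 280.1 and 264 normalized reads in the sham libraries and 406, 411, 240.4, 228 and 222 in the OA libraries. Mcm6 had 637, 547, 499, 533 and 574 normalized reads in the sham libraries and 668, 662, 569, 559 and 499 in the OA libraries. In Mcm5, OA replicates 1 and 2 and sham replicate 1 were between 406 and 426 normalized reads and the other 7 libraries between 220 and 302, while Mcm2 and Mcm6 varied less, by 1.52 and 1.34 times between their extreme libraries. The groups overlapped in each. Cdc45 had 72.7, 58.2, 111, 70.3 and 57.1 normalized reads in the sham libraries and 72.1, 57.2, 50.8, 57.3 and 51.0 in the OA libraries. Its sham replicate 3, the library with the fewest reads, was the highest.

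Sham replicate 2 was the highest library at 12 weeks in Mcm2, Mcm5, Mcm6 and Cdc45. Mcm2 had 604, 858, 507 and 534 normalized reads in the sham libraries and 543, 555, 539 and 556 in the OA libraries, with the 4 OA libraries within 539 to 556. Mcm5 had 315, 618, 188 and 155 normalized reads in the sham libraries and 209, 219.6, 178 and 240.2 in the OA libraries. Sham replicate 2 of Mcm5 was 3.28 times the median of the other sham libraries, while sham replicate 3 was inside and sham replicate 4 below the OA range. Mcm6 had 605, 877, 476 and 472 normalized reads in the sham libraries and 519, 538, 507 and 547 in the OA libraries. Cdc45 had 64.2, 113, 56.0 and 42.5 normalized reads in the sham libraries and 53.2, 43.9, 40.8 and 47.2 in the OA libraries. The groups overlapped in these 4 genes. Log2 fold changes were -0.38 ± 0.35 (SE, adjusted p = 0.664) for Mcm5 and -0.48 ± 0.26 (SE, adjusted p = 0.467) for Cdc45. Without sham replicate 2 the values were 0.0053 ± 0.22 (SE, adjusted p = 0.993) for Mcm5 and -0.21 ± 0.19 (SE, adjusted p = 0.621) for Cdc45.

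Gins2 did not follow that library. At 12 weeks it measured 394, 340.3, 359 and 368 normalized reads in the sham libraries and 288, 326, 309.9 and 227 in the OA libraries. Every OA library was lower than every sham library, and sham replicate 2 was the lowest of the sham libraries. The 4-week values were 250.5, 311, 239, 315 and 326 normalized reads in the sham libraries and 269.7, 265, 216, 312 and 332 in the OA libraries, where the groups overlapped fully. The log2 fold change of Gins2 was -0.35 ± 0.11 (SE, unadjusted p = 0.0107, adjusted p = 0.317) at 12 weeks, which did not pass the threshold, and -0.39 ± 0.12 (SE, adjusted p = 0.328) without sham replicate 2. At 4 weeks it was -0.052 ± 0.13 (SE, adjusted p = 0.918). Mcm4 was similar in size, with -0.33 ± 0.11 (SE, unadjusted p = 0.0136, adjusted p = 0.325) at 12 weeks and -0.22 ± 0.083 (SE, adjusted p = 0.338) without sham replicate 2. Its OA libraries had 738 to 795 normalized reads and its sham libraries 794 to 1216. Over all 8 helicase members the 12-week log2 fold changes ran from -0.48 to -0.16, and the 4-week ones from -0.32 to 0.15.

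**Figure D3:**
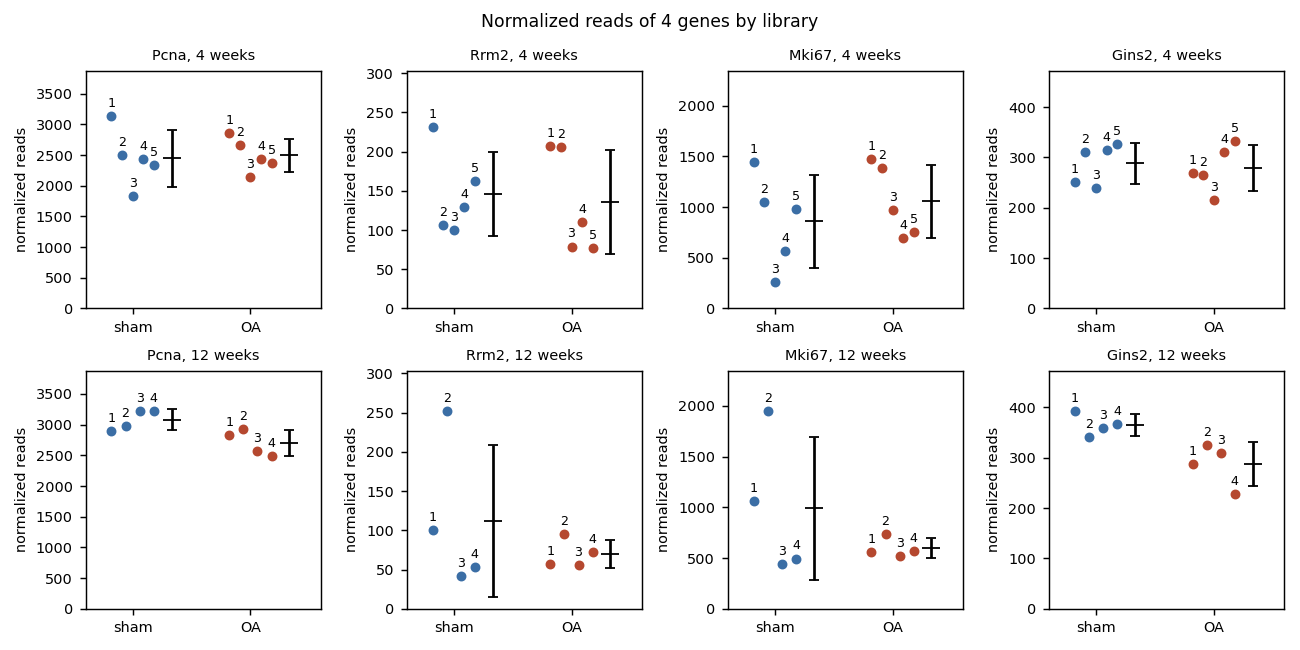
Normalized reads in each library (points numbered by replicate, blue sham and red OA, black bars mean and SD) of Pcna, Rrm2, Mki67 and Gins2 at 4 weeks (top) and 12 weeks (bottom), with axes from 0 that are shared between the weeks of a gene although the weeks were normalized separately. Sham replicate 2 is highest at 12 weeks in Rrm2 (253) and Mki67 (1953) but not in Pcna or Gins2, where the OA libraries reach up to 2932 and 326 and the sham libraries start at 2900 and 340.3.

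Polymerase members were Pola1 and Prim1, the catalytic subunit and the primase of the enzyme that starts each new strand, and Pole, the polymerase of the leading strand. Pola1 had 563, 495, 334, 393 and 498 normalized reads in the sham libraries and 492, 454, 602, 469 and 474 in the OA libraries at 4 weeks. Prim1 had 387, 337, 364, 359 and 356 normalized reads in the sham libraries and 490.2, 575, 322, 321 and 301 in the OA libraries, where OA replicates 1 and 2 exceeded all other libraries and the other 3 OA libraries were below every sham library. Pole had 259, 208, 165, 191 and 193 normalized reads in the sham libraries and 238, 223, 161, 178 and 161 in the OA libraries. At these levels the groups overlapped in all 3 genes, with log2 fold changes between -0.085 and 0.14.

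By 12 weeks Pola1 had 560.0, 740.0, 533 and 468 normalized reads in the sham libraries and 484, 468, 587 and 490.1 in the OA libraries. Prim1 had 472, 478, 354 and 345 normalized reads in the sham libraries and 449, 402, 308 and 330.3 in the OA libraries. Pole had 229, 367, 151 and 136 normalized reads in the sham libraries and 150.1, 179.7, 138 and 167 in the OA libraries. Sham replicate 2 was highest in each, with sham replicate 1 close to it in Prim1 and well below it in Pole. Pole gave -0.36 ± 0.27 (SE, adjusted p = 0.579) with all libraries and -0.083 ± 0.18 (SE, adjusted p = 0.856) without sham replicate 2.

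Pcna encodes the sliding clamp that holds polymerases on DNA, Rfc4 a subunit of its loader, and Fen1 and Lig1 the nuclease and the ligase that finish lagging strand fragments. At 4 weeks Pcna had 3139, 2495, 1827, 2438 and 2336 normalized reads in the sham libraries and 2859, 2659, 2139, 2432 and 2376 in the OA libraries. Fen1 had 141, 129.9, 111, 101 and 121 normalized reads in the sham libraries and 157, 138, 131, 120.5 and 97.6 in the OA libraries. Lig1 had 137, 151, 176, 123 and 134 normalized reads in the sham libraries and 153, 142, 129.8, 125 and 129 in the OA libraries. The groups overlapped throughout, with sham replicate 1 and OA replicate 1 high in Pcna and sham replicate 3 the highest in Lig1 and the lowest in Pcna.

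Pcna at 12 weeks had 2899.5, 2976, 3215 and 3229 normalized reads in the sham libraries and 2833, 2932, 2574 and 2483 in the OA libraries. Sham replicates 3 and 4 were highest and OA replicates 3 and 4 lowest, while OA replicate 2 (2932) exceeded sham replicate 1 (2900), so the groups overlapped by 1 library on each side. The log2 fold change of Pcna was -0.19 ± 0.073 (SE, unadjusted p = 0.0263, adjusted p = 0.361), and -0.20 ± 0.081 (SE, adjusted p = 0.341) without sham replicate 2, which here was not high. Fen1 had 122, 188, 102 and 117 normalized reads in the sham libraries and 110.0, 99.1, 129 and 140.5 in the OA libraries. Lig1 had 153, 198, 150.1 and 170.1 normalized reads in the sham libraries and 135, 157, 150.1 and 147 in the OA libraries. In both, sham replicate 2 was the highest library, with ratios of 1.61 and 1.29 to the median of the other sham libraries. Rfc4 ranged from 203 to 305 normalized reads at 12 weeks and from 172 to 276 at 4 weeks.

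Nucleotide supply was represented by Rrm1 and Rrm2, the subunits of ribonucleotide reductase, and by Tyms, the thymidylate synthase. The large subunit gene Rrm1 had 1051, 831, 808, 844 and 839 normalized reads in the sham libraries and 978, 1073, 1005, 856 and 831 in the OA libraries at 4 weeks. At 12 weeks it had 880.4, 1315, 847 and 812 normalized reads in the sham libraries and 820.3, 870.1, 853 and 1002 in the OA libraries. Sham replicate 1 and the OA replicates 1 to 3 were high in Rrm1 at 4 weeks, and sham replicate 2 at 12 weeks. The small subunit gene Rrm2, whose protein is limited to S and G2 phase, had 231, 107, 99.8, 129 and 162 normalized reads in the sham libraries and 207, 206, 79.0, 109.7 and 77.0 in the OA libraries at 4 weeks. By 12 weeks it had 101, 253, 42.0 and 52.9 normalized reads in the sham libraries and 57.6, 95.0, 55.8 and 71.9 in the OA libraries. Rrm2 varied 3.00 times between its extreme libraries at 4 weeks and 6.02 times at 12 weeks, and Rrm1 by 1.33 and 1.62 times. At 4 weeks sham replicate 1 and OA replicates 1 and 2 of Rrm2 were above 200 normalized reads and the rest at or under 162. At 12 weeks sham replicate 2 of Rrm2 was 4.78 times the median of the other sham libraries, the highest such ratio among the replication genes.

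Tyms had 227, 238, 165, 191 and 208 normalized reads in the sham libraries and 238, 245, 219, 189 and 189.8 in the OA libraries at 4 weeks, with overlap. At 12 weeks it had 212, 257, 216 and 213 normalized reads in the sham libraries and 174, 203, 198 and 204 in the OA libraries. All 4 sham libraries were above all 4 OA libraries, by 212 against 204 normalized reads at the nearest. The log2 fold change of Tyms was -0.20 ± 0.099 (SE, unadjusted p = 0.0666, adjusted p = 0.427) at 12 weeks, and -0.14 ± 0.095 (SE, adjusted p = 0.532) without sham replicate 2. For Rrm2 it was -0.34 ± 0.47 (SE, adjusted p = 0.778), and 0.17 ± 0.30 (SE, adjusted p = 0.817) without that library.

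**Figure D4:**
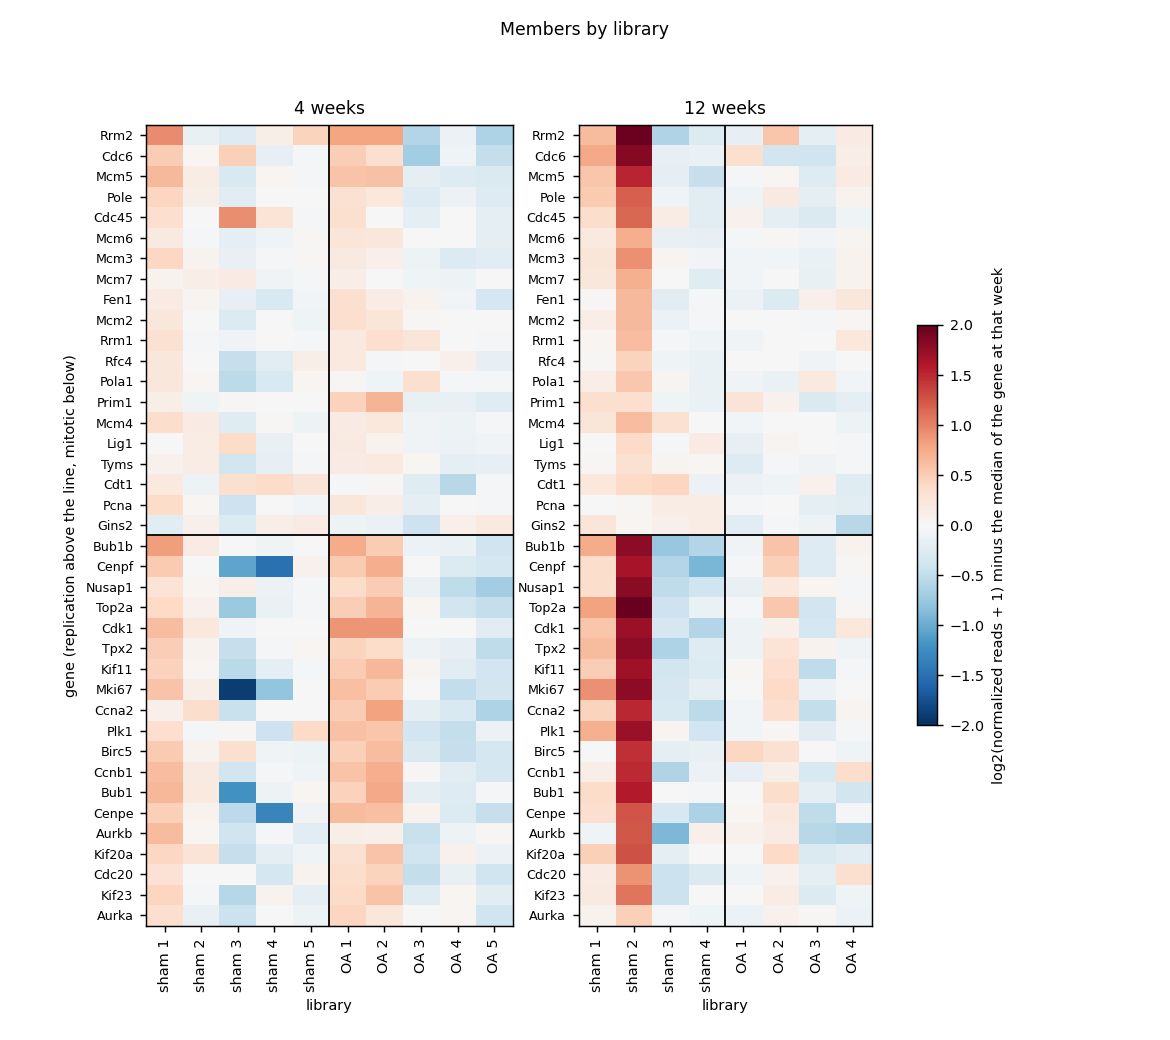
Log2(normalized reads + 1) of each of the 39 members in each library minus the median of the gene at that week (red higher, blue lower, colours limited to 2 on either side), sham libraries left and OA libraries right of the vertical line, replication genes above and mitotic genes below the horizontal line. Sham replicate 2 at 12 weeks is red in nearly all rows, and at 4 weeks sham replicate 1 and OA replicates 1 and 2 are red in most mitotic rows.

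Among the mitotic genes, Ccna2 and Ccnb1 encode the cyclins of S phase to early mitosis and of mitotic entry, Cdk1 their kinase partner, and Cdc20 the activator of the anaphase-promoting complex. At 4 weeks Ccna2 had 142, 169.6, 97.5, 134 and 132 normalized reads in the sham libraries and 189, 232, 115, 107 and 85.7 in the OA libraries. Ccnb1 had 169, 124, 83.6, 107 and 103 normalized reads in the sham libraries and 163, 181, 111, 93.0 and 85.7 in the OA libraries. Cdk1 had 189.7, 143, 118, 123 and 123 normalized reads in the sham libraries and 229, 228, 124, 124 and 106 in the OA libraries. OA replicates 1 and 2 were the highest OA libraries in each, sham replicate 1 was the highest sham library in Ccnb1 and Cdk1, and the other 3 OA libraries were at most 124 normalized reads in all of them. Cdc20 had 181, 149, 146, 116 and 155 normalized reads in the sham libraries and 188, 202, 106, 133 and 112 in the OA libraries, with the same OA libraries on top. The log2 fold changes of these 4 genes ran from -0.050 to 0.16, and none had an unadjusted p under 0.05.

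Ccna2 at 12 weeks had 121, 253, 71.2 and 60.9 normalized reads in the sham libraries and 84.6, 111, 63.3 and 92.2 in the OA libraries. Ccnb1 had 77.1, 199, 45.8 and 64.4 normalized reads in the sham libraries and 62.8, 76.6, 56.8 and 90.1 in the OA libraries. Cdk1 had 125, 284, 67.4 and 56.3 normalized reads in the sham libraries and 79.4, 90.9, 66.5 and 98.7 in the OA libraries. Sham replicate 2 of Cdk1 was 4.21 times the median of the other sham libraries, and sham replicates 3 and 4 were near or below the low end of the OA range. Cdc20 had 132, 221, 87.8 and 96.5 normalized reads in the sham libraries and 111, 126, 104 and 148 in the OA libraries. For Cdk1 the log2 fold change was -0.37 ± 0.42 (SE, adjusted p = 0.727) with all libraries and 0.088 ± 0.26 (SE, adjusted p = 0.899) without sham replicate 2, and all 4 genes had a positive value without that library.

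The mitotic kinases and checkpoint genes hold Plk1, Aurka and Aurkb, kinases of spindle assembly and chromosome attachment, Birc5, which encodes survivin, the partner of Aurora B, and Bub1 and Bub1b of the spindle checkpoint. At 4 weeks Plk1 had 95.8, 74.6, 76.6, 56.3 and 100.3 normalized reads in the sham libraries and 114, 111, 57.7, 54.0 and 69.4 in the OA libraries. Aurkb had 252, 168, 123, 161 and 139 normalized reads in the sham libraries and 177, 174, 119, 152 and 165 in the OA libraries, where sham replicate 1 was the highest library. In Plk1 that library was below OA replicates 1 and 2 and sham replicate 5. Birc5 had 58.9, 42.7, 51.1, 38.7 and 37.7 normalized reads in the sham libraries and 56.9, 62.9, 33.0, 29.1 and 31.5 in the OA libraries. Bub1 had 326, 237, 88.2, 191 and 212 normalized reads in the sham libraries and 284, 349.7, 179.9, 172 and 201 in the OA libraries. OA replicates 1 and 2 and sham replicate 1 were the 3 highest libraries of Birc5 and Bub1, and sham replicate 3 was the lowest of Bub1. At 4 weeks the 6 genes had log2 fold changes from -0.15 to 0.23.

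Plk1 at 12 weeks had 65.0, 132, 40.7 and 29.9 normalized reads in the sham libraries and 37.5, 39.8, 33.2 and 38.6 in the OA libraries. All 4 OA libraries lay within 33.2 to 39.8 normalized reads, between sham replicates 4 and 3. The log2 fold change of Plk1 was -0.60 ± 0.38 (SE, adjusted p = 0.519), the most negative of the mitotic genes, and -0.20 ± 0.25 (SE, adjusted p = 0.735) without sham replicate 2. Aurkb had 119, 303, 67.4 and 137 normalized reads in the sham libraries and 135, 142, 85.8 and 83.7 in the OA libraries. Birc5 had 31.7, 89.4, 28.0 and 28.7 normalized reads in the sham libraries and 42.8, 39.8, 32.2 and 30.0 in the OA libraries, where sham replicates 3 and 4 were below the OA range and sham replicate 1 inside it. Bub1 had 164, 385, 126 and 125 normalized reads in the sham libraries and 128, 162, 112 and 98.7 in the OA libraries, and gave -0.53 ± 0.33 (SE, adjusted p = 0.517) with all libraries and -0.16 ± 0.18 (SE, adjusted p = 0.715) without sham replicate 2. Aurka varied least, from 123 to 186 normalized reads, and Bub1b most, from 34.3 to 206.

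Motor and spindle genes were Kif11, the motor that pushes spindle poles apart, Kif20a and Kif23, motors of the central spindle and cytokinesis, Cenpe, a kinetochore motor, and Tpx2 and Nusap1, which bind spindle microtubules. Kif11 had 306, 228, 153, 195 and 217 normalized reads in the sham libraries and 318, 352, 232, 193 and 170.3 in the OA libraries at 4 weeks. Kif23 had 371, 269, 186, 291 and 244 normalized reads in the sham libraries and 358, 412, 233, 282 and 236 in the OA libraries. Tpx2 had 301, 226, 156, 209 and 220.0 normalized reads in the sham libraries and 291, 277, 199, 191 and 151 in the OA libraries. Sham replicate 3 was the lowest sham library in these 3 genes, and OA replicates 1 and 2 were the highest OA libraries. The 4-week log2 fold changes of all 6 ran from -0.15 to 0.38, the latter for Cenpe (adjusted p = 0.751).

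At the later time Kif11 had 200.3, 462, 109 and 117 normalized reads in the sham libraries and 145, 179.7, 99.7 and 139 in the OA libraries. Kif23 had 233, 431, 153 and 203 normalized reads in the sham libraries and 207, 227, 169 and 194 in the OA libraries. Tpx2 had 189.7, 424, 78.9 and 102 normalized reads in the sham libraries and 114, 147, 129 and 116 in the OA libraries. Sham replicate 2 exceeded the highest OA library in each, by 462 to 179.7 normalized reads in Kif11 for example, whereas sham replicate 3 was the lowest sham library in each. The 6 genes had log2 fold changes from -0.43 to -0.23, and without sham replicate 2 only Kif20a was below 0 (5 of 6 above 0).

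Chromosome genes were Mki67, which encodes the proliferation antigen Ki-67 that coats mitotic chromosomes, Top2a, the topoisomerase that untangles them, and Cenpf, a kinetochore protein. At 4 weeks Mki67 had 1443, 1052, 259.9, 564 and 979.5 normalized reads in the sham libraries and 1477, 1382, 968, 695 and 758 in the OA libraries. Top2a had 839.8, 677, 381, 582 and 621 normalized reads in the sham libraries and 899, 1020.4, 654, 491 and 459 in the OA libraries. Cenpf had 536, 374, 179, 131 and 397 normalized reads in the sham libraries and 533, 613, 369, 309 and 292 in the OA libraries. OA replicates 1 and 2 and sham replicate 1 were again high, and the lowest values were in sham replicate 3 for Mki67 and Top2a and in sham replicate 4 for Cenpf. The log2 fold changes were the largest of all members at 4 weeks, 0.51 ± 0.36 (SE, adjusted p = 0.718) for Cenpf and 0.45 ± 0.40 (SE, adjusted p = 0.766) for Mki67, and were within the spread between pools. Cenpf stood at 0.23 without sham replicate 4 and Mki67 at 0.075 without sham replicate 3, and without sham replicate 1 they were 0.73 and 0.69. With array weights Mki67 stood at 0.15.

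Mki67 at 12 weeks had 1061, 1953, 445 and 495 normalized reads in the sham libraries and 562, 737, 520.1 and 567 in the OA libraries. Top2a had 589, 1327, 252 and 307 normalized reads in the sham libraries and 329, 486, 256 and 341 in the OA libraries. Cenpf had 309.8, 758, 160.3 and 128 normalized reads in the sham libraries and 239, 336, 203 and 245 in the OA libraries. In Mki67 and Top2a sham replicates 1 and 2 were above every OA library and sham replicates 3 and 4 below or within the OA range. Log2 fold changes were -0.48 ± 0.40 (SE, adjusted p = 0.629) for Mki67 and -0.53 ± 0.44 (SE, adjusted p = 0.631) for Top2a, and without sham replicate 2 they were -0.059 ± 0.27 (SE, adjusted p = 0.938) and -0.054 ± 0.29 (SE, adjusted p = 0.948). Cenpf moved from -0.068 ± 0.46 (SE, adjusted p = 0.956) to 0.44 ± 0.28 (SE, adjusted p = 0.504) without that library.

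Spread within groups was larger for the mitotic genes than for genes at large. The median within-group SD on the log2 scale was 0.42 for the mitotic genes, 0.22 for the replication genes and 0.22 for all genes tested at 4 weeks. At 12 weeks it was 0.69, 0.25 and 0.17, and without sham replicate 2 it was 0.39, 0.15 and 0.16. Levels of the mitotic genes differed between the extreme libraries by a median of 2.22 times at 4 weeks and 4.39 times at 12 weeks (1.99 times without sham replicate 2). Among sham libraries at 12 weeks the median ratio of highest to lowest was 4.34 for the mitotic genes and 1.65 for the replication genes, and 1.95 and 1.23 without sham replicate 2, and among OA libraries it was 1.58 for the mitotic genes.

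The surgery effect was also compared between the weeks, as the OA against sham difference at 12 weeks minus that at 4 weeks, in a limma fit of log2 CPM over all 18 libraries. No member was called among 39, beside 0% of all 14420 genes. In limma 0 of 39 had an unadjusted p under 0.05, beside 3% of all genes. The count was also 0 in edgeR and DESeq2, where the share of all genes was not counted, so it has no background there. The median difference was -0.20 for the replication genes, of which 19 of 20 were negative, and -0.38 for the mitotic genes, of which 17 of 19 were negative, with -0.013 for all genes, 53.1% of which were negative. Without sham replicate 2 at 12 weeks the medians were 0.0020 and -0.039, and 10 of 20 replication genes, 11 of 19 mitotic genes and 52.1% of all genes were negative. The lowest medians were -0.29 for the replication genes (without sham replicate 4 at 12 weeks) and -0.62 for the mitotic genes (without sham replicate 3 at 12 weeks). The smallest p was that of Mcm4, with a difference of -0.30 ± 0.16 (SE, unadjusted p = 0.0754, adjusted p = 0.962). Cdt1 had 0.085 ± 0.21.

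Further cell cycle genes, 149 symbols in 8 lists, were measured in the same libraries. At 4 weeks 145 rows were tested, of which 83 were higher and 62 lower in OA, beside 42.9% of all genes lower. Of these rows 1 in each direction had an unadjusted limma p under 0.05, beside 4.1% of all genes higher and 3.82% lower. By any of the 3 tools 0 were called, beside 0% of all genes in limma and edgeR and 0.159% in DESeq2. OA replicate 2 was the highest library in 41 of the 145, sham replicate 1 in 38 and OA replicate 1 in 22. Of all 14861 genes tested, 1201, 1849 and 603 were highest in these libraries. At 12 weeks 144 were tested, 18 higher and 126 lower, beside 52.5% of all genes lower. At that p 1 was higher and 19 were lower, beside 5.75% of all genes higher and 6.62% lower. By any tool 0 were called, beside 0% of all genes in limma and edgeR and 0.695% in DESeq2. Sham replicate 2 was the highest library in 113 of the 144 at 12 weeks, beside 14.3% of all genes. Without that library 86 were lower and 58 higher, beside 51.0% of all genes lower. At that p 9 were then lower and 2 higher, beside 7.15% of all genes lower and 6.3% higher. The median log2 fold change was -0.030 where it had been -0.23.

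By list at 12 weeks, counts at an unadjusted limma p under 0.05 stand beside 6.62% of all genes lower and 5.75% higher, or 7.15% and 6.3% without sham replicate 2. For edgeR counts the shares were 5.9% lower and 6.59% higher, or 6.63% and 6.64% without that library. For DESeq2 counts they were 6.42% and 5.48%, or 6.65% and 5.43%. The licensing and initiation genes (origin recognition complex, Cdc7 and Dbf4 kinase, other GINS subunits) were lower in 20 of 21, with 5 at that p, and without sham replicate 2 in 17 of 21, with 1. The kinetochore and checkpoint genes were lower in 21 of 23, with 1 at that p in limma, 1 in edgeR and 3 in DESeq2. Without that library they were lower in 12 of 23, with 1 in limma and 0 in edgeR and DESeq2. The spindle, condensin and cytokinesis rows (a symbol can have more than 1 row) were lower in 29 of 30, with 0 at that p in limma, 1 in edgeR and 2 in DESeq2, and without that library in 15 of 30, with 0 in all 3 tools. The mitotic entry and exit genes were lower in 16 of 17, with 4 at that p in limma, 4 in edgeR and 5 in DESeq2. Without that library they were lower in 11 of 17, with 2 in all 3 tools.

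The G1 cyclins, Cdks, E2F and pocket protein genes were lower in 15 of 20, with 5 at that p in all 3 tools. Without sham replicate 2 they were lower in 13 of 20, with 4 lower and 1 higher in limma. The counts were then 3 lower and 1 higher in edgeR, and 3 lower and 0 higher in DESeq2. The polymerase, loader and single-strand binding genes were lower in 11 of 16, with 4 lower and 1 higher at that p in limma. The counts were 1 lower and 1 higher in edgeR, and 2 lower and 1 higher in DESeq2. Without that library 9 of 16 were lower, with 1 in each direction in all 3 tools. The nucleotide supply and chromatin assembly genes were lower in 9 of 10, and without that library in 5 of 10, with 0 at that p in all 3 tools either way. The Cdk inhibitor and antiproliferative genes were lower in 5 of 7 with 0 in all 3 tools, and without that library in 4 of 7 with 0 in limma, 0 in edgeR and 1 in DESeq2. Sham replicate 2 was the highest library in 29 of 30 spindle rows and 22 of 23 kinetochore genes, but in 9 of 20 G1 genes and 1 of 7 Cdk inhibitor genes.

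The 3 smallest p-values per week among these genes were as follows. At 4 weeks Ttk, a spindle checkpoint kinase, had 129, 98.9, 83.6, 79.7 and 79.2 normalized reads in the sham libraries and 148, 145, 126, 129 and 96.5 in the OA libraries (log2 fold change 0.46 ± 0.16, SE). E2f8, a repressor of the E2F family, had 35.0, 40.7, 48.7, 32.8 and 26.7 normalized reads in the sham libraries and 37.4, 29.5, 22.7, 19.1 and 16.3 in the OA libraries (log2 fold change -0.57 ± 0.25, SE). Ccnd1, the G1 cyclin D1, had 4397, 4534, 5166, 4063 and 5215 normalized reads in the sham libraries and 3697, 4037, 4210.5, 4271 and 4211 in the OA libraries (log2 fold change -0.19 ± 0.088, SE). The groups overlapped in all of them. At 12 weeks Cdc25b, the phosphatase that starts mitotic entry by activating Cdk1, had 419, 461, 436 and 449 normalized reads in the sham libraries and 369, 340.1, 385 and 288 in the OA libraries (log2 fold change -0.36 ± 0.095, SE). Cdk2, the kinase partner of cyclins E and A, had 332, 346, 339.6 and 314 normalized reads in the sham libraries and 289, 281, 236 and 212 in the OA libraries (log2 fold change -0.40 ± 0.11, SE). In both, every OA library was lower than every sham library, as in 7 of the 144 further genes, beside 3.44% of all genes. Pold4, a small subunit of polymerase delta, had 216, 241, 207 and 229.8 normalized reads in the sham libraries and 266, 286, 277 and 272 in the OA libraries (log2 fold change 0.30 ± 0.080, SE). Every OA library was higher, as in 1 of the 144 further genes, beside 2.85% of all genes. Adjusted p was 0.278 for each of these 3 genes at 12 weeks and 0.328 without sham replicate 2, and 0.570, 0.611 and 0.632 for Ttk, E2f8 and Ccnd1 at 4 weeks, so none passed.

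Marker genes of other cells were measured beside these results. Of 12 myeloid and macrophage markers all 12 were measured at 12 weeks, with a summed level of 153737 to 182422 normalized reads in OA and 126493 to 173080 in sham, and sham replicate 2 at 153797 ranked 5 of 8. Its granulocyte precursor sum, over 8 genes that include the early granule genes Mpo and Elane, was 66.2, the lowest of 8 libraries (OA 122 to 933, other sham 221 to 1396), and its neutrophil sum was 1470 (OA 1085 to 3041, other sham 1218 to 3673). Ctsg and Prtn3 were at 0 in it and in sham replicate 4, and Prtn3 also in OA replicates 3 and 4 and sham replicate 3. The sum of 6 mast cell markers in sham replicate 2, 4408, was the highest (OA 1641 to 3452, other sham 2153 to 3785). The fibroblast sum of 8 measured genes was 83898 to 110352 in OA and 58405 to 89980 in sham, and the skeletal muscle sum of 7 measured genes was 1028 to 1804 in OA and 804 to 933 in sham, without overlap. The other sums at 12 weeks are given in OA and then in sham. They were 25802 to 32420 and 28988 to 44364 for 5 endothelial genes, and 1326 to 5771 and 1791 to 3832 for 5 erythroid genes. For 6 dendritic genes they were 824 to 992 and 948 to 1118. For 8 T and NK genes they were 88.1 to 107 and 79.3 to 155, and for 7 B and plasma genes 35.4 to 141 and 37.9 to 92.2. Only 2 of the 8 T and NK genes and 2 of the 7 B and plasma genes had a mean of at least 10 normalized reads. Of the 8 granulocyte precursor genes 3 did, so most genes of these 3 lists were low.

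At 4 weeks granulocyte marker sums varied among the 3 libraries with high mitotic genes. Summed granulocyte precursor markers were 3493 in OA replicate 1, 147 in OA replicate 2 and 1008 in sham replicate 1, while OA replicate 3, which was not high in mitotic genes, had 4010 and the highest neutrophil sum (9559). Over groups the precursor sum ran from 118 to 4010 in OA and from 264 to 1125 in sham, with Prtn3, Ctsg and Ms4a3 at 0 in at least 1 library. In OA replicates 1 and 2 and sham replicate 1 the mast sums were 1000, 1213 and 1457 (OA 1000 to 1933, sham 1457 to 2059). Their endothelial sums were 26540, 26909 and 28468 (OA 26113 to 37243, sham 28468 to 35096). Itgam, the gene of the sorted antigen, was 5339 and 5145 normalized reads in OA replicates 1 and 2, against 3745 to 4246 in the other OA libraries. In sham replicate 1 it was 6917, against 2270 to 4918 in the other sham libraries. Other myeloid genes varied in these 3 libraries. Ptprc was 6944, 7274 and 8259 in them, against 3166 to 7234 in the rest. Csf1r was 24080, 23870 and 20784, against 20805 to 28192 in the rest. The sum of the 12 myeloid and macrophage markers was 122649, 133489 and 132480 in them. That sum ran from 117747 to 139383 in OA, highest in OA replicate 3, and from 108606 to 132480 in sham. At 12 weeks Itgam was 5396 in sham replicate 2, inside the range of the other libraries (3700.0 to 6104). The part of these differences in cell makeup in the cell cycle results was not tested.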

How the data were processed

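Per the labels, samples were grouped by surgery and week. The authors took quality metrics of the reads with fastp 0.20.0, aligned the reads to Rnor_6.0 with STAR 2.7.6a, dropped duplicates with Sambamba, assigned reads to genes with featureCounts 2.0.0 and divided the counts by DESeq2 1.24.0 size factors within each week. The library kit was stranded and which strand was counted is not given in the sources used here, so reads of overlapping antisense genes may be included. The deposited values are therefore a signal of normalized reads. The deposited tables also hold the authors' own comparison (mean, log2 fold change with its standard error, test statistic, p-value and adjusted p-value), which was not used. In each library 100% of the non-zero values were whole multiples of 1 read (tolerance 0.1 reads), so reads were recovered, 4662344 to 18080503 per library.

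OA was compared with sham within each week with limma 3.58.1 (R 4.3.3) on log2(normalized reads + 1) for genes with a mean of at least 10, with Benjamini-Hochberg adjustment over 14861 genes at 4 weeks and 14666 at 12 weeks. On recovered reads, edgeR 4.0.16 and DESeq2 1.42.0 were alternatives, and the difference between weeks was fitted in limma on log2 CPM (TMM, prior count 2). Further alternatives were TMM scaling, a mean of at least 50 or no minimum beyond 1 read, a pseudocount of 0.5 or 5, a replicate block, array weights, no fold-change minimum and each library left out. DESeq2 and edgeR fits without sham replicate 3 at 4 weeks and sham replicate 2 at 12 weeks were added after seeing the data. Values by library are given for 1 to 4 genes per role and for genes whose groups did not overlap, and further cell cycle genes are named for the 3 smallest p per week. The members, lists and rules were chosen with earlier results of these data known. Promoter windows are those of RefSeq for GRCr8, another assembly than that of the authors. Other steps used pandas 2.3.3, scipy 1.17.1 and numpy 2.4.6 in Python 3.11.15.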

Additional observations from a re-analysis of the deposited data

Results flagged for a closer look

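Single libraries far from the rest of their group were looked for with Dixon's 95% criterion in 64 groups of values at each week, 3 of which met it at 4 weeks and 4 at 12 weeks, and chance alone gives about 1 in 20. At 12 weeks all 4 were high values of sham replicate 2, namely 1315 normalized reads of Rrm1, 257 of Tyms, 89.4 of Birc5 and 385 of Bub1. At 4 weeks they were 111 normalized reads of Cdc45 in sham replicate 3 (the library with the fewest reads), 1051 of Rrm1 in sham replicate 1 and 602 of Pola1 in OA replicate 3. The sham replicate 2 values of Rrm2 and Mki67 did not meet the criterion, since sham replicate 1 was also above the other sham libraries.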

How the results depend on the processing

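No member was called under any alternative run, at either week or for the difference between weeks. The count of members with an unadjusted p under 0.05 at 4 weeks (1) was 0 in DESeq2, 0 in DESeq2 without sham replicate 3 and 0 to 1 with each library left out (0 without OA replicate 3 or 4 or sham replicate 3, 4 or 5). At 12 weeks (3) it was 7 in DESeq2 and 2 (without OA replicate 4) to 7 (without sham replicate 4) with each library left out. With the replicate number as a block the counts were 0 at 4 weeks and 5 at 12 weeks. For the block and for left-out libraries other than sham replicate 2 at 12 weeks, the share of all genes was not counted. A change in those counts therefore cannot be told from a change over all genes. Libraries of the same number come from different rats, and the correlation of their deviations was -0.13 to 0.080 at 4 weeks and -0.026 to 0.30 at 12 weeks. Only replicate 3 at 12 weeks correlated best with its own number, and the numbers were not used as pairs in the main fit. With 4 or 5 libraries per group, such correlations cannot exclude a pairing. The 12-week mitotic median (-0.32) was -0.53 in DESeq2 and -0.54 in edgeR. The 4-week replication median (-0.0042) was 0.047 with TMM scaling and 0.00094 with a mean of at least 50. Without sham replicate 2, the 12-week medians were -0.086 and 0.015 in DESeq2 and -0.079 and 0.020 in edgeR for the replication and mitotic genes. Of the values of named members, 43 of 568 at 4 weeks and 19 of 508 at 12 weeks changed sign, none of them called. At 4 weeks these were, outside single left-out libraries, Plk1 at 0.0036 and Mcm5 at 0.0090 in DESeq2, Plk1 at 0.016, Mcm5 at 0.041, Cdc20 at 0.000279 and Tpx2 at 0.037 with TMM scaling, and Cdc20 at 0.025 and Ccna2 at -0.015 with array weights. With each library left out in turn, the log2 fold change at 4 weeks was -0.059 to 0.14 for Pcna, -0.055 to 0.23 for Ccnb1, -0.16 to 0.20 for Ccna2, -0.036 to 0.20 for Prim1, -0.17 to 0.089 for Aurkb, -0.12 to 0.035 for Gins2, -0.17 to 0.058 for Cdc20, -0.13 to 0.11 for Tpx2, -0.17 to 0.093 for Plk1, -0.13 to 0.13 for Mcm5, -0.35 to 0.014 for Rrm2, -0.17 to 0.0054 for Pole, -0.0012 to 0.13 for Tyms, -0.051 to 0.42 for Bub1 and -0.0071 to 0.29 for Top2a. With each library left out in turn, the log2 fold change at 12 weeks was -0.42 to 0.44 for Cenpf, -0.22 to 0.22 for Cdc20, -0.68 to 0.17 for Rrm2, -0.68 to 0.088 for Cdk1, -0.68 to 0.010 for Kif11, -0.68 to 0.13 for Tpx2, -0.66 to 0.0053 for Mcm5, -0.59 to 0.093 for Ccna2, -0.65 to 0.069 for Aurkb, -0.49 to 0.20 for Ccnb1, -0.46 to 0.035 for Kif23, -0.27 to 0.27 for Birc5, -0.26 to 0.037 for Mcm6, -0.25 to 0.0025 for Mcm2, -0.23 to 0.062 for Fen1 and -0.17 to 0.062 for Rrm1, each upper end being the value without sham replicate 2. The cause was not tested. Every member lay above the floor of 3 reads in every library, and a group held 4 or 5 pools.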
